A study of Rattus norvegicus with 20 samples.

Results

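Genes kept high after stiff priming were examined in cultured rat mesenchymal stromal cells (MSCs), as the genes whose RNA stayed higher in cells that had first been grown on a stiff surface, whichever surface they grew on afterwards. Of 30560 genes in the count table, 183 met the rule. A member had a mean of at least 5 CPM (a gene's count scaled to a common library total) over the 4 stiff-primed libraries of week 5, and its lowest stiff-primed library held at least 1.5 times the CPM of its highest soft-primed library. These 183 genes were 1.85% of the 9919 genes with a mean of at least 5 CPM in the stiff-primed libraries. The week-5 libraries therefore set the pattern, and their values are given as a description without a test. The libraries of weeks 1 and 3 did not choose the members and were used for the tests. Those of week 3 in replicates 1 and 2 varied together with the week-5 libraries, as given below.

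MSCs came from bone marrow of female Wistar rats and were cultured on gelatin-coated silicone of 2 kPa (soft) or 100 kPa (stiff), with passage onto fresh surfaces each week, in α-MEM with fetal bovine serum. No gene was altered and no drug was added, and all groups shared the medium, the coating and the weekly detachment with trypsin. The groups were 1w2 and 1w100 (1 week on soft or stiff), 3w2 and 3w100 (3 weeks), 5w2 and 5w100 (5 weeks), and the switched cells 3w2→2w100 and 3w100→2w2, which spent 3 weeks on the first surface and 2 weeks on the other. There were 3 libraries for each group of weeks 1 and 3 and 2 for each group of week 5, 20 in all, with totals of 16127907 to 24139128 counts. Each batch of MSCs came from a single rat, and the study counts the replicates of a group as biological replicates, meaning MSCs of different rats. The labels do not say which libraries of different groups share a rat. The p-values measure the spread between these libraries only. Replicate libraries differed well beyond sampling noise, with a chi-square per degree of freedom of 18.6 to 98.5 over 16 pairs, and no library was counted as a copy of another.

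MSCs are stromal cells that can become myofibroblasts, the contractile cells that lay down and tighten scar matrix. Stiff matrix promotes this step through focal adhesions, actin stress fibers and tension-sensitive transcriptional regulators, and soft matrix restrains it. Mechanical memory is the name for features of the cell, such as contractile and matrix gene expression or chromatin state, that outlast the surface on which they were acquired. The files used here give Ensembl identifiers that are not paired with gene symbols, so the members are described by their values, few are identified, and their functions, promoters and proteins were not analysed here. For the same reason the MSC label was not checked against marker genes.

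At week 5 the members ranged widely in level. Their mean in stiff-primed libraries ran from 5.02 to 3565 CPM with a median of 16.9 CPM, and their mean in soft-primed libraries from 0.155 to 892 CPM with a median of 3.43 CPM. Most members thus gave moderate read numbers in stiff-primed cells, 133 reaching 10 CPM and 24 reaching 100 CPM. The ratio of the stiff-primed to the soft-primed mean was 1.749 to 54.2 with a median of 4.48, and it was at least 10 for 40 members. Soft-primed cells had not lost these RNAs altogether, as 0 members were at 0 counts in every soft-primed library and 2 were at 0 in at least 1 of them. CPM is not corrected for gene length, so levels are compared between libraries and not between genes.

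The members just inside the fold limit had lowest-stiff to highest-soft ratios of 1.502, 1.502 and 1.503, and the genes just outside had 1.497, 1.495 and 1.493. There was no gap at the limit, since 47 members had ratios of 1.5 to 1.7 and another 82 genes had ratios of 1.3 to 1.5. At the other end 101 members had a ratio of at least 2, 46 of at least 3 and 15 of at least 5. A single library often set the ratio. The lowest stiff-primed value was in 5w100 replicate 1 for 111 members and in 3w100→2w2 replicate 1 for 48, and the highest soft-primed value was in 5w2 replicate 1 for 72.

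**Figure D1:**
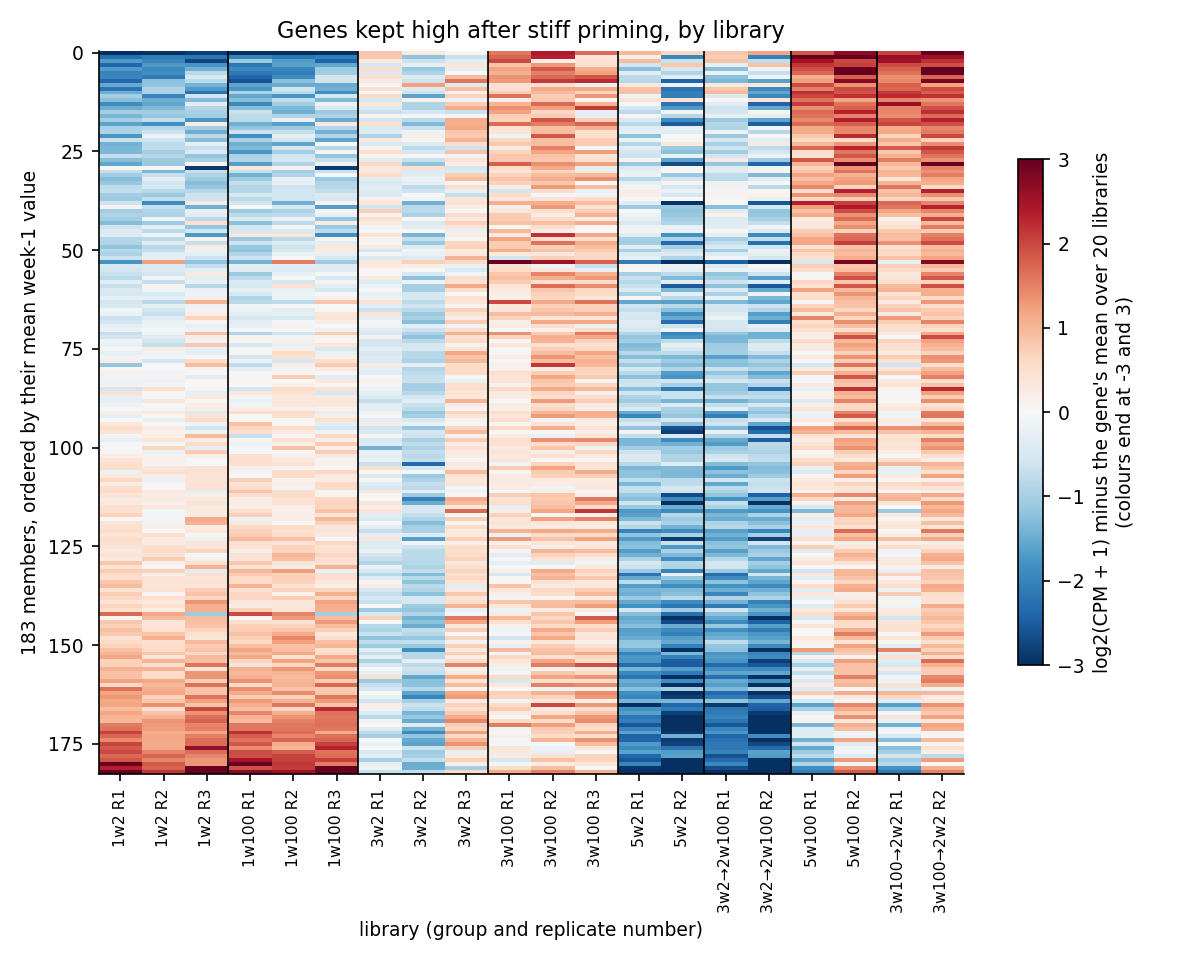
Each row is 1 of the 183 members and each column 1 of the 20 libraries, grouped by condition (R1 to R3, replicate numbers), with colour for log2(CPM + 1) minus the gene's mean over all libraries. Rows are ordered by their mean value in the 6 week-1 libraries, and blue soft-primed columns of week 5 against red stiff-primed ones show the rule, while week-1 columns look alike on both surfaces.

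After the switch the members stood close to their level in week-5 cells kept on the first surface. Differences between libraries are given here on the log2 CPM scale with edgeR's TMM library scaling and a prior count of 2. The median difference of stiff-primed cells moved to soft (3w100→2w2) from those kept on stiff (5w100) was 0.03, with quartiles of -0.10 and 0.16. For 176 of 183 members it lay within 0.5 of 0, and the extremes were -1.09 and 0.58. Members lay on both sides of 0, with 101 higher and the rest lower after the move, and 2 members were lower by over 0.5 in both replicate numbers. For soft-primed cells moved to stiff (3w2→2w100) against those kept on soft (5w2), the median was 0.02, with quartiles of -0.18 and 0.17. Here 170 members lay within 0.5 of 0, and the extremes were -0.91 and 1.08. Here 2 members were higher by over 0.5 on stiff in both replicate numbers and 5 were lower. The rule excludes genes that followed the second surface strongly, so these small differences are in part its product. The share of all genes within 0.5 is not given, so whether the members were closer than other genes is not shown.

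The replicate numbers of week 5 differed more than the surfaces of the second phase did. In 5w100, replicate 2 was above replicate 1 for 152 members, with a median difference of 0.63, and in 3w100→2w2 for 155 members, with a median of 0.56. In soft-primed cells replicate 2 was mostly the lower one, with median differences of -0.45 in 5w2 and -0.30 in 3w2→2w100. The same differences over all genes had medians between -0.01 and 0.00. Number 2 thus held the wider gap between priming surfaces, with a median of 2.71 (5w100 minus 5w2) and 2.51 (3w100→2w2 minus 3w2→2w100) against 1.61 and 1.71 in number 1. Over all genes these differences were also more spread in number 2, with SDs of 1.01 and 0.97 against 0.61 and 0.65. The wider gap was thus not particular to the members.

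The members' share of all counts gave their summed level in each library. It was 0.764%, 0.684% and 0.973% in the 3 libraries of 1w2 and 0.780%, 0.797% and 0.979% in 1w100, so the 1-week groups overlapped. At week 3 it was 0.728%, 0.483% and 1.01% in 3w2 and 1.32%, 1.31% and 1.28% in 3w100, where every stiff library lay above every soft one. At week 5 it was 0.529% and 0.365% in 5w2, 0.517% and 0.396% in 3w2→2w100, 1.43% and 1.90% in 5w100 and 1.42% and 1.86% in 3w100→2w2. As the mean of 3 libraries with its SD, the share after 1 week was 0.807% ± 0.149 on soft and 0.852% ± 0.110 on stiff. After 3 weeks it was 0.741% ± 0.265 on soft and 1.303% ± 0.0197 on stiff. The member with the most reads made up 21.6% of this sum in stiff-primed libraries and the top 5 made up 50.5%, so the share follows a few genes. In bulk RNA, more cells of a type that makes these RNAs and more RNA per cell cannot be told apart.

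A median that weighs every member equally gave the time course with less distance at week 3. For each gene its mean log2 CPM over the 20 libraries was subtracted, and the median over members was taken in each library. This level was -0.13, -0.03 and 0.20 in 1w2 and -0.06, 0.17 and 0.26 in 1w100. It was -0.20, -0.83 and 0.50 in 3w2 and 0.46, 0.99 and 0.77 in 3w100, so replicate 3 of 3w2 lay above replicate 1 of 3w100. At week 5 it was -1.04 and -1.47 in 5w2, -1.17 and -1.48 in 3w2→2w100, 0.49 and 1.24 in 5w100 and 0.50 and 1.23 in 3w100→2w2. The median at week 5 lay above every week-1 level in stiff-primed libraries and below every one in soft-primed libraries, which is a statement on the median and not on each member.

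**Figure D2:**
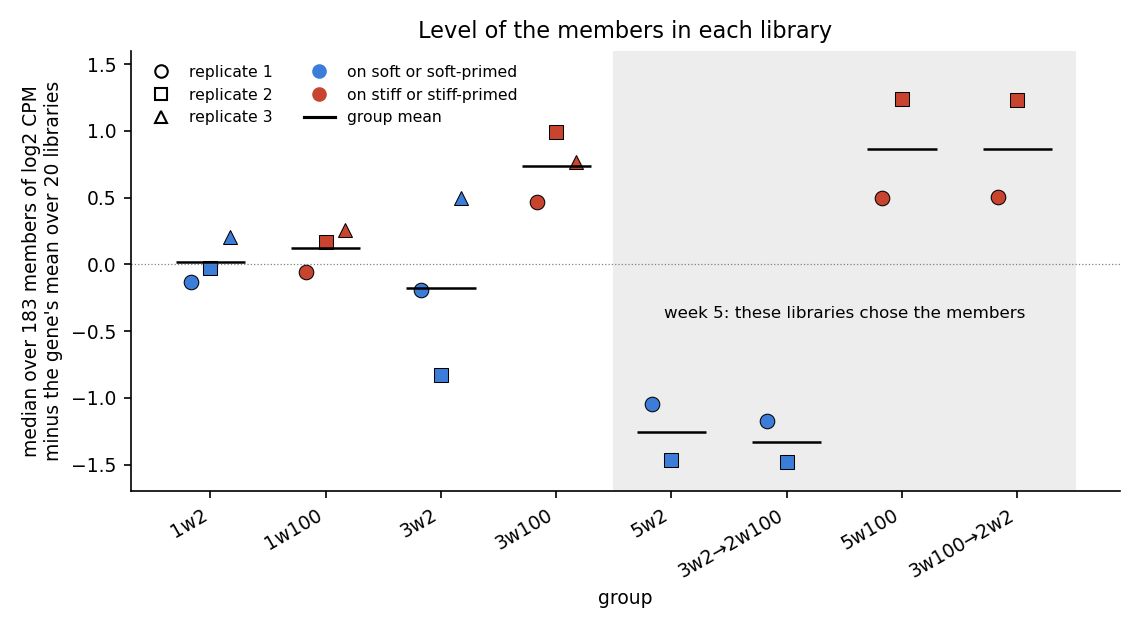
Each point is 1 library, at the median over the 183 members of log2 CPM minus the gene's mean over 20 libraries, with circles, squares and triangles for replicates 1, 2 and 3 and a bar for the group mean. Libraries on soft or soft-primed (blue) and on stiff or stiff-primed (red) lie together at week 1, overlap at week 3 through 3w2 replicate 3 at 0.50, and lie apart at week 5 (grey area), where the rule sets the gap.

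Whether the members already differed by surface after 3 weeks of priming was tested in libraries that had not chosen them. These were not all independent of the choice, as week-3 libraries of numbers 1 and 2 varied together with the same-numbered week-5 libraries. Only number 3 has no week-5 library, and there the median stiff minus soft was 0.27, with 77.6% of members higher on stiff. No member (0 of 183, background 0%) reached an adjusted p below 0.05 for 3w100 against 3w2 (edgeR's quasi-likelihood test over 13604 genes, Benjamini-Hochberg adjustment), and neither did any other gene. The members nevertheless lay to one side. Their median log2 fold change was 0.80, with quartiles of 0.58 and 1.06, against 0.01 over all genes tested, and 180 of 183 were above 0 (98.4%, against 52.3% of all genes). At an unadjusted p below 0.05, 73 members were higher on stiff and 0 lower, 39.9% of the members, where the background was 4.34% of genes higher on stiff and 4.07% lower. With a term for replicate number in the edgeR fit (the replicate block), 109 members were higher at this limit. No share over all genes is set beside that count, and after adjustment the block called 0 members and 0 other genes. DESeq2 called 3 members higher at an adjusted p below 0.05, against a background of 0.0882%. The smallest adjusted p of a member by edgeR was 0.472, with a median standard error of 0.42 on the log2 scale.

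The 3 libraries of 3w100 lay above the 3 of 3w2 without overlap for 52 members (28.4%), where 6.26% of all genes tested did so, and 0 members had the opposite order, against 7.81%. Replicate 3 of 3w2 decided much of this. It was the highest of the 3 soft libraries for 151 members, and it lay above at least 1 stiff library for 116 members, against 30 for replicate 1 and 10 for replicate 2. Without it 149 members (81.4%) were free of overlap, where the background was 17.5%, as 2 libraries are easier to clear than 3. This count was chosen after seeing the data. The soft libraries left were those of numbers 1 and 2, which varied together with the week-5 libraries that chose the members. The fit without 3w2 replicate 3 kept the same soft libraries and is no independent check either. It gave a median of 1.28, with 5 members called higher against a background of 0.0652%. At an unadjusted p below 0.05 there were 130 members against 7.61%. Leaving out replicate 2 of 3w2, the library with the lowest members, gave a median of 0.56.

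The size of the 3-week difference varied widely between single replicate numbers. Stiff minus soft had a median over members of 0.73 in number 1, 1.80 in number 2 and 0.27 in number 3, and 170, 180 and 142 of the 183 members were higher on stiff. Of all 14034 genes passing the low-count filter over the 20 libraries, 49.7%, 51.2% and 49.4% were higher on stiff, so the members lay to one side in every number. Over 1.5-fold higher on stiff were 62.8%, 93.4% and 19.1% of members, against 8.58%, 12.9% and 4.67% of all genes. In all 3 numbers 129 members were higher on stiff, 70.5% of them, against 20.4% of all genes.

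**Figure D3:**
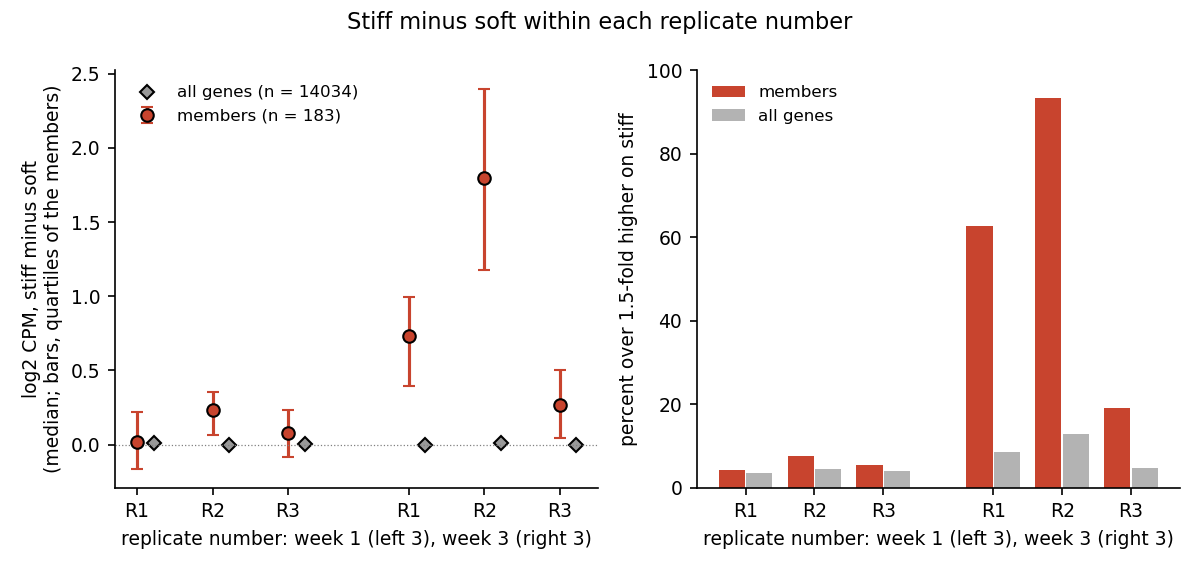
The left panel gives stiff minus soft on the log2 CPM scale within each replicate number (R1 to R3) at weeks 1 and 3, as the median over the 183 members with their quartiles as bars and the median over all 14034 genes as diamonds. The right panel gives the percent of members and of all genes over 1.5-fold higher on stiff, which at week 3 was 62.8%, 93.4% and 19.1% for members.

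Number 3 was the only replicate number that no week-5 library carries. Libraries of week 3 and week 5 with the same number and first surface deviated together from their group means, with correlations across 14034 genes of 0.37 to 0.45 in the 8 pairs. Week-3 libraries of numbers 1 and 2 were thus not independent of the libraries that chose the members, and whether they were earlier passages of the same cells was not tested. The gap in number 3, with a median of 0.27 and 77.6% of members higher on stiff, was the smallest of the 3 numbers. Which part of that came from the number and which from the library 3w2 replicate 3 cannot be told apart.

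After 1 week the difference between surfaces was small and lay mostly to the stiff side. Their median log2 fold change of 1w100 over 1w2 was 0.11 against 0.00 over all genes, 137 of 183 were above 0 (74.9%, against 49.7% of all genes), and 0 reached an adjusted p below 0.05 by edgeR or DESeq2. At an unadjusted p below 0.05 there were 0 members, where 0.191% of all genes were higher on stiff. With the replicate block 0 members were called, and 0 were higher at the unadjusted limit. Libraries were free of overlap with stiff higher for 10 members (5.46%), against 1.61% of all genes. Within the numbers the medians were 0.02, 0.24 and 0.08, and 94, 148 and 112 members (51.4%, 80.9% and 61.2%) were higher on stiff, against 52.0%, 49.4% and 50.9% of all genes. Number 1 thus lay at the background and number 2 farthest above it. Week-1 libraries of number 2 varied together with its week-3 libraries (r = 0.366 on stiff and 0.392 on soft), which varied with those of week 5. Number 2 at week 1 may therefore not be independent of the choice, and its correlation with week 5 is not given. In all 3 numbers 31.7% of members were higher on stiff, against 15.4% of all genes.

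The difference between the 3-week and the 1-week effect was tested as an interaction. Its median over members was 0.66 against 0.01 over all genes, and 176 of 183 were above 0 (96.2%, against 53.0% of all genes). However, 0 members or other genes reached an adjusted p below 0.05 by edgeR, and 0 by DESeq2. At an unadjusted p below 0.05 were 12 members (6.56%), all with the larger effect at 3 weeks, against a background of 1.26% in that direction and 1.08% in the other. With the replicate block 43 members were higher at this limit, a count without a share over all genes beside it. After adjustment the block called 0 members. This comparison and the one at 3 weeks use the same week-3 libraries.

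With time in culture members changed in both directions, and most were not called. From week 1 to week 3 on stiff, 43 members rose and 8 fell at an adjusted p below 0.05 (edgeR), 23.5% and 4.37% of the members, against backgrounds of 4.56% and 5.62%. The median was 0.57 against -0.01 over all genes. On soft 15 rose and 18 fell, 8.20% and 9.84%, against 3.96% and 5.45%, with a median of -0.05 against -0.02. DESeq2 gave 27 rising and 23 falling on soft, against backgrounds of 6.85% and 7.82%. With the replicate block 55 rose and 9 fell on stiff, and 28 rose and 30 fell on soft. No share over all genes by direction is set beside these. In both directions together the block called 2049 genes on stiff and 1966 on soft, in place of 1384 and 1280. The counts without the block hung on single libraries. Without 1w100 replicate 1 the stiff counts were 20 and 2, and without 3w100 replicate 2 they were 26 and 2. The count that fell on stiff was 2 to 5 without any one of 1w2 replicates 1 or 2, 1w100 replicates 2 or 3 or 3w100 replicates 1 or 3, and 13 without 3w2 replicate 3. On soft the counts were 7 and 7 without 1w2 replicate 1, 8 and 5 without 3w2 replicate 1, 16 and 8 without 3w2 replicate 2 and 14 and 49 without 3w2 replicate 3, and 11 fell without 1w2 replicate 3.

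Crossing the 2 surfaces, 15 members rose on both (8.20%, against 2.37% of all genes tested) and 28 rose on stiff and were not called on soft (15.3%, against 2.18%). Another 10 fell on soft and were not called on stiff (5.46%, against 1.61%), 8 fell on both (4.37%, against 3.84%) and 122 were called on neither (66.7%, against 86.6%). The share that fell on both was near its background. A call on 1 surface alone does not show that the surfaces differed, and the interaction, which tests this, called 0 members. The 3-week difference between surfaces had a similar median in these classes, 0.84 for those that rose on both, 0.95 for those that rose on stiff alone, 0.83 for those that fell on soft alone, 0.64 for those that fell on both and 0.79 for those called on neither. The time comparisons share their week-3 libraries with the 3-week comparison.

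**Figure D4:**
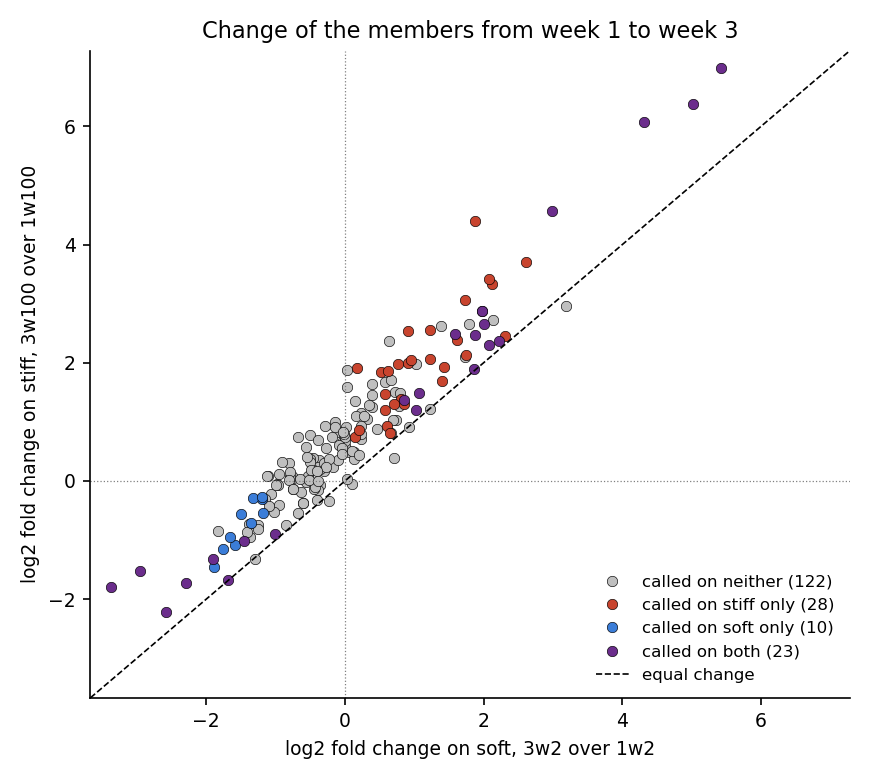
Each point is 1 of the 183 members, placed by its log2 fold change from week 1 to week 3 on soft (x axis, 3w2 over 1w2) and on stiff (y axis, 3w100 over 1w100), with colour for the surfaces on which its adjusted p was below 0.05. Most points lie above the dashed line of equal change, which restates that 176 members had the larger stiff-to-soft difference at week 3, and their spread along the line shows members that were higher and members that were lower at week 3 on both surfaces.

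Set against week 1, the week-5 gap took 2 main forms, given as a description since week-5 values chose the members. For 102 members (55.7%, against 21.6% of the 9919 genes with a stiff-primed mean of at least 5 CPM) the 4 soft-primed libraries of week 5 all lay below all 6 week-1 libraries, while the stiff-primed ones did not all lie above them. Their median level was 17.7 CPM at week 1, 10.9 CPM in 3w2, 15.8 CPM in 3w100, 2.85 CPM in soft-primed and 13.6 CPM in stiff-primed cells of week 5. These were genes that young cultures expressed on both surfaces and that were lowest after soft priming. For 65 members (35.5%, against 9.56%) the stiff-primed libraries all lay above week 1, and the soft-primed ones did not all lie below it. Their median level was 4.66 CPM at week 1, 9.88 CPM in 3w2, 14.5 CPM in 3w100, 5.47 CPM in soft-primed and 26.8 CPM in stiff-primed cells of week 5. Another 9 members did both (4.92%, against 0.151%) and 7 did neither (3.83%, against 68.7%). The rule parts the priming groups, so these shares had to differ from those of other genes.

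The 3-week difference between surfaces compared week-3 libraries only, though week-1 libraries entered the filter, scaling and spread of the fit. Numbers 1 and 2 of week 3 were not independent of the week-5 libraries. The 3-week difference had a median log2 fold change of 0.77 for the 102 members of the first form and 0.84 for the 65 of the second. In replicate number 3, which week 5 lacks, the medians were 0.22 and 0.31, with 75 of 102 and 52 of 65 members higher on stiff. In 20 members (10.9%, against 18.2% of the same 9919 genes) even the stiff-primed libraries of week 5 all lay below all week-1 libraries, so these were less expressed on both surfaces late in culture and kept higher after stiff priming only by comparison.

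From week 3 to week 5 the soft side moved more than the stiff side. In numbers 1 and 2, 5w2 minus 3w2 had medians over members of -0.83 and -0.63, with 158 and 142 members lower, and 3w2→2w100 minus 3w2 had -0.91 and -0.59. After the move of soft-primed cells to stiff, 157 and 140 members were lower than in 3w2 of the same number. A gene that reached the stiff-primed level after that move could not be a member, so the rule favours this outcome. On the stiff side, 5w100 minus 3w100 had medians of 0.08 and 0.31, and 3w100→2w2 minus 3w100 had 0.16 and 0.32, so the medians were above 0 after 2 weeks on soft as well. Members lower than in 3w100 of the same number were 79 and 46 in 5w100 and 76 and 46 in 3w100→2w2. Since week-5 values chose the members, these differences carry no test, and no share over all genes is set beside them.

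Members with a larger gap at week 5 tended to have a larger one at week 3, most clearly in number 2. Week-3 libraries of numbers 1 and 2 varied together with the week-5 libraries that set the gap, so the agreement is no independent check. Across the 183 members Spearman's rho between the log2 ratio of means at week 5 and the 3-week log2 fold change was 0.58, and within the numbers it was 0.27, 0.74 and 0.23, as a description over genes that share libraries. With the members split by the week-5 ratio into 3 sets of 61, the median 3-week log2 fold change was 1.07 in the upper set (6.70 to 54.2-fold at week 5), 0.84 in the middle set and 0.58 in the lower set (1.749 to 3.58-fold). In replicate number 3 the medians were 0.44, 0.21 and 0.25, so there only the upper set stood above the others. At week 1 rho was 0.12.

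The member with the most reads in stiff-primed cells was present in every library. It had 220, 185 and 108 CPM in 1w2, 332, 224 and 136 CPM in 1w100, 871, 456 and 566 CPM in 3w2, and 2835, 828 and 974 CPM in 3w100. In week-5 libraries it had 1375 and 448 CPM in 5w2, 1325 and 420 CPM in 3w2→2w100, 4049 and 2841 CPM in 5w100 and 4088 and 3282 CPM in 3w100→2w2. In each replicate number it was higher on stiff at weeks 1 and 3, and at week 5 it was higher after stiff priming, as the rule requires. Replicate 1 on soft exceeded replicate 2 on stiff at week 3. It rose from week 1 to week 3 on stiff by a log2 fold change of 2.87 (SE 0.51, edgeR adjusted p = 0.00571) and on soft by 1.97 (SE 0.49, adjusted p = 0.0308). The 3-week difference of 1.31 (SE 0.48) had an edgeR adjusted p of 0.545.

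The member with the widest gap at week 5, a ratio of 8.31 between lowest stiff-primed and highest soft-primed library, had the first form. It had 9.15, 7.94 and 17.7 CPM in 1w2 and 7.07, 8.60 and 16.98 CPM in 1w100, close to each other within each number. At week 3 it had 3.45, 2.60 and 16.5 CPM in 3w2 and 6.17, 17.1 and 22.2 CPM in 3w100, so replicate 3 of 3w2 lay within the stiff range. By week 5 it had 0.249 and 0.0913 CPM in 5w2 and 0.223 and 0.0570 CPM in 3w2→2w100, and 2.07 and 10.3 CPM in 5w100 and 3.30 and 12.05 CPM in 3w100→2w2. The soft-primed values were near the floor, so the size of the ratio rests on few reads there. Even in stiff-primed cells number 1 had less than at week 1, and no comparison of weeks 1 and 3 called it (smallest edgeR adjusted p = 0.647).

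The largest and smallest 3-week differences are given by identifier. ENSRNOG00000002158 had the largest, with 22.3, 28.7 and 26.1 CPM in 3w2 and 148, 104 and 61.1 CPM in 3w100, which did not overlap. Its log2 fold change was 2.04 (SE 0.92), with an edgeR adjusted p of 0.589. At week 1 it had 41.0 and 52.0 CPM in replicate 2 of 1w2 and 1w100 but 4.31 to 7.53 CPM in the other week-1 libraries, a difference between numbers rather than surfaces. Later, at week 5, it had 11.9 and 126 CPM in 5w100, 14.3 and 120 CPM in 3w100→2w2, 3.28 and 0.365 CPM in 5w2 and 2.29 and 1.254 CPM in 3w2→2w100.

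ENSRNOG00000015055 was nearly silent at week 1, with 0.0538 to 0.256 CPM over the 6 libraries. At week 3 it had 7.83, 1.18 and 2.197 CPM in 3w2 and 15.99, 23.9 and 5.62 CPM in 3w100, where replicate 1 on soft exceeded replicate 3 on stiff. It rose with time on stiff, by a log2 fold change of 6.37 (SE 0.88, edgeR adjusted p = 0.00153), and on soft, by 5.02 (SE 0.96, adjusted p = 0.00940), and the call on soft was lost without 1w2 replicate 1. The 3-week difference was 2.03 (SE 0.64, adjusted p = 0.545). At week 5 it had 47.4 and 79.9 CPM in 5w100 and 30.6 and 28.2 CPM in 3w100→2w2, against 0.228 to 7.43 CPM in the soft-primed libraries. After the move to soft it was thus lower in both replicate numbers, with means of 63.7 CPM in 5w100 and 29.4 CPM in 3w100→2w2. It was 1 of 3 members under 1 CPM in all week-1 libraries.

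ENSRNOG00000016362 had the lowest 3-week value of the members, a log2 fold change of -0.20 (SE 0.58, edgeR adjusted p = 0.943), with 1.84, 6.01 and 1.29 CPM in 3w2 and 3.11, 3.14 and 1.59 CPM in 3w100. The sign rests on replicate 2 of 3w2, without which the value was 0.77. It too was under 1 CPM throughout week 1 and rose on both surfaces by week 3, by log2 fold changes of 6.08 (SE 0.95, edgeR adjusted p = 0.00284) on stiff and 4.31 (SE 0.78, adjusted p = 0.00690) on soft. At week 5 it had 10.6 and 6.56 CPM in 5w100 and 9.33 and 5.803 CPM in 3w100→2w2, above 1.73 to 2.79 CPM in soft-primed libraries, so its gap was seen at week 5 and not at week 3.

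ENSRNOG00000030759 had 35.9, 34.8 and 26.1 CPM in 3w2 and 42.7, 27.6 and 19.0 CPM in 3w100, a log2 fold change of -0.10 (SE 0.24, edgeR adjusted p = 0.932). The groups overlapped, and without 3w100 replicate 3 the value was 0.15. At week 5 it had 52.4 and 55.2 CPM in 5w100 and 50.8 and 62.9 CPM in 3w100→2w2, against 32.7 and 26.7 CPM in 5w2 and 22.9 and 30.9 CPM in 3w2→2w100. Only 3 members in all had a 3-week value below 0, and 54 had one above 1.

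**Figure D5:**
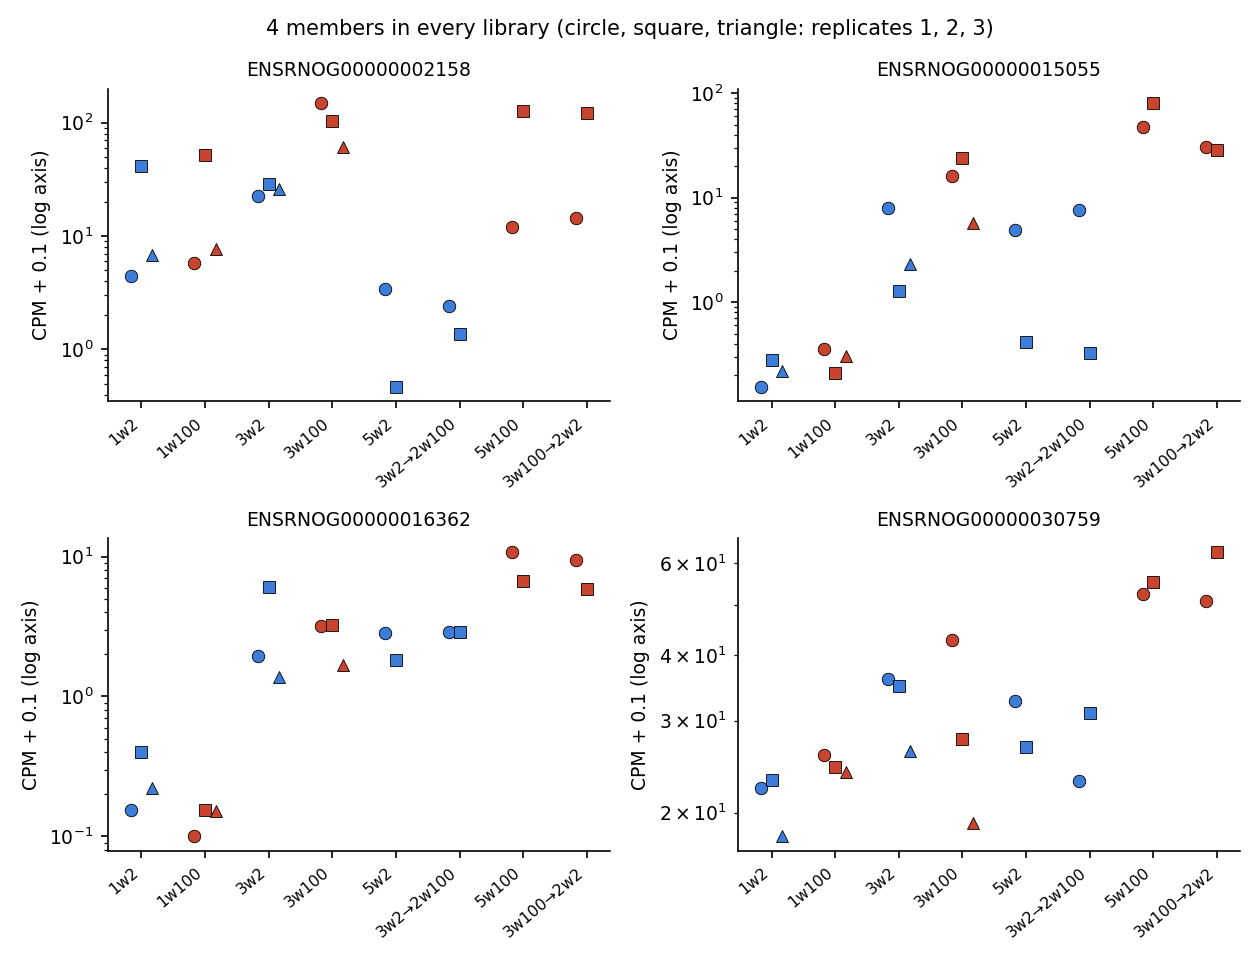
Each panel is 1 member, with CPM + 0.1 on a log axis for every library by group, circles, squares and triangles for replicates 1, 2 and 3, blue for soft or soft-primed and red for stiff or stiff-primed. The upper 2 had the largest 3-week log2 fold changes of the members (2.04 and 2.03) and the lower 2 the smallest (-0.20 and -0.10), while all 4 lie apart by first surface at week 5 as the rule requires.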

How the data were processed

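The deposited table holds the authors' unnormalized counts, by Ensembl gene, for 20 polyA RNA libraries. They trimmed reads with TrimGalore!, checked them with FastQC, mapped them to mRatBN7.2 (rn7) with HISAT2 and counted them with featureCounts. The strand setting is not given in the sources used here, nor are tool versions and the handling of multimapping reads. Near-identical and overlapping genes are therefore uncertain. Groups and replicate numbers came from the labels.

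Members were chosen on CPM from column totals. The members, lists and comparisons were chosen with earlier results of these data known. For weeks 1 and 3, counts of 12 libraries were fitted by the quasi-likelihood test of edgeR 4.0.16 (R 4.3.3), with filterByExpr, TMM scaling and no block. This left 13604 genes, including 183 of 183 members, and p-values were Benjamini-Hochberg adjusted over all of them, with calls at 0.05. Week-5 libraries were left out of the fit, since they chose the members. The code was tested on simulated data. Alternatives were DESeq2 1.42.0, RLE factors, other filters, other sets of libraries, the replicate block, other member limits and leaving out libraries. A group left with 2 libraries shared the spread of the others.

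The rule for named genes needed symbols and so gave none. Its part on the largest and smallest 3w100 against 3w2 change was applied to identifiers after values were seen, for 2 in each direction, as were the members with the most reads and the widest gap. For each gene, deviations from the group mean were correlated between same-numbered libraries. These were 0.655, 0.680 and 0.796 between 1w2 and 1w100 and 0.127, 0.366 and 0.107 between 1w100 and 3w100. All of these were over 0.1, so same-numbered libraries were related there, by the data and not by a label. Between 3w2 and 3w100 (0.393, 0.088 and 0.477) and between 1w2 and 3w2 (0.029, 0.392 and 0.110) not all were over 0.1. The main fit treated no libraries as pairs, and counts with the replicate block stand beside its counts of members for each comparison.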

Additional observations from a re-analysis of the deposited data

How the results depend on the processing

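Limits come first from the small number of libraries, 3 per group at weeks 1 and 3, with a median standard error of 0.42 on the log2 scale at 3 weeks. The medians of members kept their sign at 3 weeks, at 1 week, on stiff over time and for the interaction in the alternatives run. DESeq2 raised the share of members called higher at 3 weeks from 0% to 1.64% and that rising on soft from 8.20% to 14.8%. With the replicate block the shares on soft were 15.3% rising and 16.4% falling (28 and 30 members), and it changed no other count of calls by over 1.5 times. At an unadjusted p below 0.05 the block gave 43 members higher for the interaction in place of 12 and 109 at 3 weeks in place of 73. No share over all genes is set beside these block counts, so their rise is not read as a result about the members. Of the 12 libraries 12 correlated best with one of their own number. With all 20 libraries the shares falling were 2.73% on stiff and 5.46% on soft, and with only the groups compared 6.59% and 2.75%. Chosen after seeing the data, leaving out replicate 3 of all groups gave 0.549% of members called higher at 3 weeks, 21.4% falling on soft and an interaction median of 1.11, and single numbers gave 3-week medians of 1.80 (number 2) and 0.27 (number 3).

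Leaving out 1 library gave 0% to 2.73% called higher at 3 weeks, with medians of 0.56 to 1.28, and 81.4% of members without overlap when 3w2 replicate 3 was left out (chosen after seeing the data). On stiff 10.9% to 26.2% rose and 1.09% to 7.10% fell. On soft 3.83% to 10.4% rose and 2.73% to 26.8% fell, with medians of -0.55 to 0.20, and the interaction median was 0.43 to 1.16. The number of members was 101 at 2-fold, 304 with the looser fold limit, 307 at a mean of 1 CPM and 83 at 20 CPM, and 178 to 231 without 1 library. The value of ENSRNOG00000016362 at 3 weeks was 0.047 with the replicate block and -0.58 (without 3w2 replicate 3) to 0.77 (without 3w2 replicate 2) without 1 library, and that of ENSRNOG00000030759 was -0.46 (without 3w100 replicate 1) to 0.15 (without 3w100 replicate 3). The cause was not tested.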

Other observations

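The same rule with the groups exchanged, genes kept high after soft priming, took 69 genes. Their stiff minus soft difference had medians over the set of -0.16, -0.48 and -0.10 in replicate numbers 1 to 3 at week 1 and of -0.81, -2.17 and -0.71 at week 3. At week 3, 62, 69 and 58 of the 69 genes were lower on stiff. In both sets number 2 had the widest 3-week difference. Over all genes the SD of that difference was also largest in number 2, at 0.79 against 0.46 in number 1 and 0.40 in number 3. In number 3 the genes kept high after soft priming lay at -0.71 and those kept high after stiff priming at 0.27. No test was run of the difference between the sets.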
